A study of Mus musculus with 6 samples.

Results

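The transcripts of *Nfe2l2*, which encodes the transcription factor Nrf2, and of 9 antioxidant enzymes were followed in the gastrocnemius, the large calf muscle, of mice with an activating *Hras* allele. The 10 genes (*Nfe2l2*, *Nqo1*, *Hmox1*, *Gclc*, *Gclm*, *Txnrd1*, *Srxn1*, *Sod1*, *Sod2* and *Cat*) were chosen by name, and all 10 were found among the 23997 gene symbols and passed the filter on low values, which left 13359 genes. The HrasG12V group held mice 2276, 2278 and 2279, which carried the Caggs-Cre transgene and 1 recombined allele (HrasG12V/+). The wild-type (WT) group held littermates 2277, 2280 and 2281, which lacked Cre and carried the same floxed allele unrecombined (HrasflG12V/+), so that wild-type *Hras* was expressed from both alleles. All mice were 21 days old and of a mixed SWR/J, 129S1/SvImJ and C57BL/6J background, with 1 muscle and 1 mRNA library per mouse (n = 3 per genotype). Caggs-Cre acts in most cell types, so the mutant allele was not limited to muscle fibers.

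Nrf2 is held in the cytoplasm and sent for degradation by its partner Keap1 under resting conditions, and oxidants or electrophiles that modify Keap1 let it build up. In the nucleus it pairs with small Maf proteins on antioxidant response elements and raises the transcription of genes for glutathione synthesis, thioredoxin recycling, quinone reduction and heme breakdown. Because Nrf2 is regulated mainly as a protein, its own mRNA and its activity need not move together, and neither protein levels nor enzyme activities were measured in these libraries. The superoxide dismutases and catalase act on superoxide and hydrogen peroxide directly. They are classed with the same defense, although other factors also control them, and contracting muscle is a steady source of both oxidants.

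The proximal promoters of these genes were searched for the core of the antioxidant response element, written TGACNNNGC, on both strands. RefSeq promoters on GRCm38.p6, from 250 bases before to 50 bases after a start site, matched 8 of the 10 genes, with 10 promoters in all. A match was present in 5 of the 10 promoters, 1 in each of 5 genes, while 12.4% of all 32851 promoters and 14.0% of the 27025 genes with a promoter held at least 1 match. The matches are shown because Nrf2 acts on antioxidant response elements. The core also occurs in many other promoters, so a match does not by itself mark a gene as a target. In each 29-base stretch the capitals mark the match, read 5′ to 3′ on its own strand. The position is that of the centre of the match relative to the start site.
*Nfe2l2*, chr2:75704885-75704913, minus strand, at -236: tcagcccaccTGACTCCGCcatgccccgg
*Gclm*, chr3:122245413-122245441, minus strand, at -130: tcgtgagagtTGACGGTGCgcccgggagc
*Txnrd1*, chr10:82859104-82859132, minus strand, at -88: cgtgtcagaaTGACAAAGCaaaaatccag
*Sod1*, chr16:90220696-90220724, minus strand, at -52: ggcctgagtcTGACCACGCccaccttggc
*Srxn1*, chr2:152105542-152105570, minus strand, at 32: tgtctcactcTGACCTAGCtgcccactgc
The match of *Txnrd1* lay in 1 of its 3 promoters. The promoters of *Nqo1*, *Sod2* and *Cat* held no match in these windows, which says nothing of elements farther away. A match of letters is not a measurement of Nrf2 binding, and none of the stretches also held TGACTCA, the site of AP-1 factors.

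Values were FPKM, a read count divided by transcript length and by the mapped reads of the library, as scaled between libraries by the authors with Cuffnorm. No read counts were used, so the number of reads behind each value is unknown and precision was judged from the spread between mice. The FPKM sum ran from 413020 to 547122 in 5 libraries and was 814013 in HrasG12V mouse 2276, and this sum is not a depth. Mouse 2276 also stood apart by transcript length. Genes with a median transcript length of 1000 bases or less had a median log2 difference of 0.43 from the WT mean in this mouse, and genes above 4000 bases had one of -0.48. The same medians lay between -0.10 and 0.02 in the other 5 libraries. B cell and T cell markers were high in HrasG12V mice 2278 and 2279 and not in mouse 2276, with values given at the marker lists. Defining genes of muscle fibers were listed partly at 0. *Acta1*, *Myh4* and *Atp2a1* were at 0 in all 6 libraries, *Ckm* in 5 and *Tnnt3* in mouse 2276, while *Tnni2* ran from 5442 to 17112 FPKM and *Ttn* from 151 to 239 FPKM. These are abundant transcripts of muscle fibers, so a 0 in these files can be a failed estimate. None of the 10 antioxidant genes was listed at 0. *Hras* itself was at 58.8, 28.9 and 16.0 FPKM in HrasG12V mice 2276, 2278 and 2279 against 36.8, 36.0 and 51.8 FPKM in WT mice 2277, 2280 and 2281, a log2 fold change of -0.44 ± 0.47 (adjusted p = 0.797 in limma). These values sum both alleles and do not show the G12V change.

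Levels, per length of transcript, differed widely among the 10 genes and kept nearly the same order in both genotypes. The dismutases and catalase were the most abundant, with WT means of 177 FPKM for *Sod1*, 143 FPKM for *Sod2* and 66.9 FPKM for *Cat*. *Sod1* and *Sod2* stood above 97.3% and 95.6% of the genes tested by mean FPKM over the 6 libraries. *Txnrd1* and *Nfe2l2* followed with WT means of 24.2 and 17.1 FPKM. The inducible enzymes were low, at 8.98 FPKM for *Gclm*, 7.78 FPKM for *Srxn1*, 5.59 FPKM for *Nqo1*, 4.74 FPKM for *Hmox1* and 2.93 FPKM for *Gclc*. Among the WT mice, neighbors in this order overlapped only for *Gclm* with *Srxn1* and for *Nqo1* with *Hmox1*. In HrasG12V mice the order of the means was the same for the 5 most abundant genes and for *Gclc*, while *Srxn1* changed places with *Gclm* and *Hmox1* with *Nqo1*. The HrasG12V values of *Sod1* and *Sod2* also overlapped, as did all neighbors from *Srxn1* down.

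**Figure D1:**
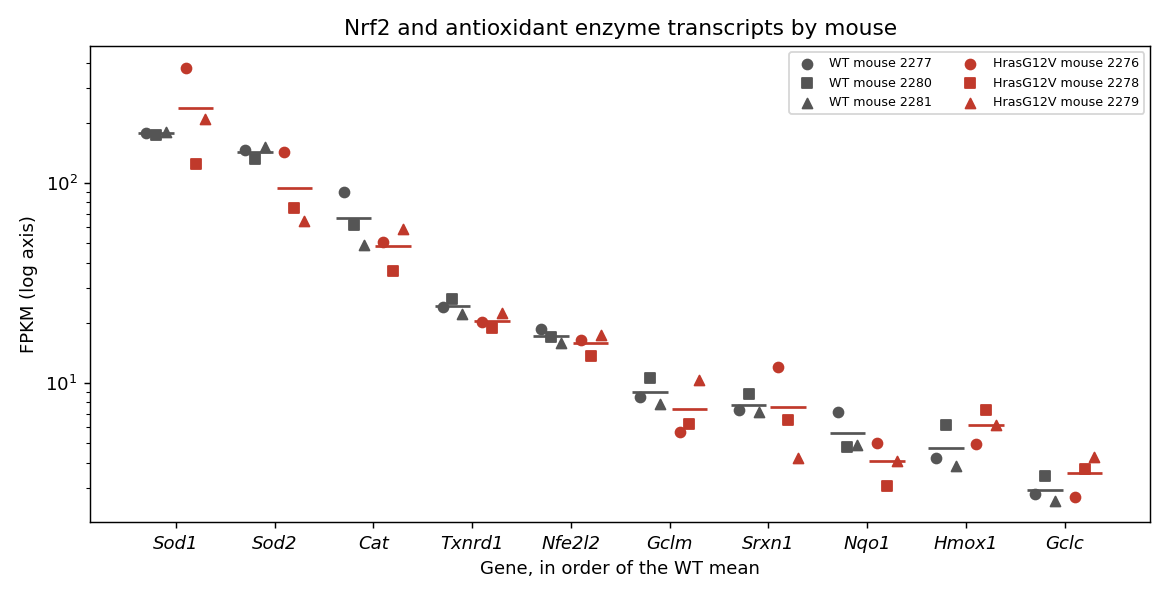
FPKM of each gene in each mouse on a log axis, with WT mice in grey, HrasG12V mice in red and a short line at the mean of each genotype (n = 3). The genotypes overlap for every gene, and the red points of *Sod1* spread from 125 to 378 FPKM around grey points at 173 to 181 FPKM.

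With all 6 mice weighted equally and the values scaled as deposited, none of the 10 genes passed the test for a difference between the genotypes. *Sod2* alone passed at an adjusted p below 0.05 in other fits, without mouse 2276 and with array weights. In these fits 9.66% and 4.28% of all genes tested passed. Genotypes were compared with limma on log2(FPKM + 0.1), a scale that slightly understates changes of genes with low FPKM, and p-values were adjusted over all 13359 genes by the Benjamini-Hochberg method. Log2 fold changes are HrasG12V over WT and are printed ± their standard error. Of the 10 genes, 0 had a limma adjusted p below 0.05, against 0.0599% of all genes tested, and 0 had an unadjusted limma p below 0.05, against 10.2% of all genes tested. For 0 of the 10 genes was every mouse of one genotype above every mouse of the other, against 18.5% of all genes tested, 8.11% with HrasG12V mice higher and 10.4% with them lower. Log2 fold changes were negative for 7 genes and positive for 3, with a median of -0.20, beside a median of -0.03 and 53.4% negative over all genes tested. With 3 mice per genotype the 95% intervals were wide. Their lower ends ran from 0.358-fold for *Sod2* to 0.875-fold for *Hmox1* and their upper ends from 1.07-fold for *Sod2* to 2.40-fold for *Sod1*, so a p above the limit does not show equal levels.

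**Figure D2:**
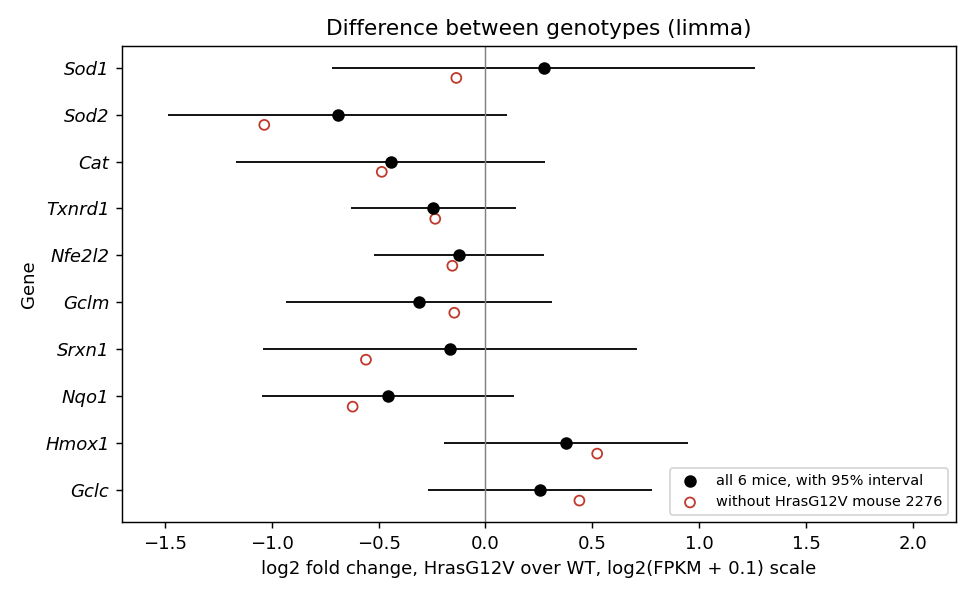
Log2 fold change of HrasG12V over WT muscle for each gene, with black points and bars for limma estimates and 95% intervals from all 6 mice and open red circles for estimates without mouse 2276. All 10 bars cross 0, and the circle of *Sod1* lies on the other side of 0 from its point.

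*Nfe2l2* lies at chr2:75675513-75704641 on the minus strand of GRCm38, with a small nuclear RNA gene (*Gm24996*) inside its span, and was at 16.4, 13.6 and 17.4 FPKM in HrasG12V mice 2276, 2278 and 2279. It was at 18.5, 17.0 and 15.9 FPKM in WT mice 2277, 2280 and 2281. The values interleaved, with the lowest in mouse 2278 and the highest in WT mouse 2277. The log2 fold change was -0.12 ± 0.17 (adjusted p = 0.851 in limma), with a 95% interval from 0.697-fold to 1.21-fold. Leaving out single mice moved this value to between -0.20 without mouse 2279 and -0.02 without mouse 2278.

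*Nqo1*, an enzyme that reduces quinones and is the usual readout of Nrf2 activity, was at 5.02, 3.07 and 4.08 FPKM in HrasG12V mice 2276, 2278 and 2279 against 7.14, 4.76 and 4.87 FPKM in WT mice 2277, 2280 and 2281. Mice 2278 and 2279 were below every WT mouse and mouse 2276 was within the WT range. Its log2 fold change was -0.46 ± 0.25 (adjusted p = 0.582 in limma), and it was -0.27 without WT mouse 2277 and also -0.27 without mouse 2278. *Hmox1*, heme oxygenase 1, releases iron, carbon monoxide and biliverdin from heme. It was at 4.93, 7.35 and 6.13 FPKM in these HrasG12V mice and at 4.20, 6.16 and 3.86 FPKM in these WT mice. The highest WT value, in mouse 2280, was above those of mice 2276 and 2279, and the log2 fold change was 0.38 ± 0.24 (adjusted p = 0.638 in limma), which ran from 0.24 without mouse 2278 to 0.58 without WT mouse 2280. *Nqo1* (chr8:107388225-107403206, minus strand) and *Hmox1* (chr8:75093621-75100589, plus strand) overlap no other annotated gene.

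*Gclc* and *Gclm* encode the catalytic and the modifier subunit of glutamate-cysteine ligase, the rate-limiting enzyme of glutathione synthesis, and their differences had opposite signs. *Gclc* lies at chr9:77754535-77794485 and *Gclm* at chr3:122245557-122270732, both on the plus strand. *Gclc* was at 2.69, 3.72 and 4.27 FPKM in HrasG12V mice 2276, 2278 and 2279 against 2.80, 3.42 and 2.58 FPKM in WT mice 2277, 2280 and 2281. *Gclm* was at 5.67, 6.26 and 10.3 FPKM and at 8.53, 10.6 and 7.86 FPKM in the same order. Mice 2278 and 2279 were above all WT mice for *Gclc*, and mice 2276 and 2278 were below all WT mice for *Gclm*. The log2 fold changes were 0.26 ± 0.22 (adjusted p = 0.733 in limma) for *Gclc* and -0.31 ± 0.26 (adjusted p = 0.729 in limma) for *Gclm*. *Gclc* was at 0.12 without mouse 2279 and 0.44 without mouse 2276, and *Gclm* at -0.15 without mouse 2276, -0.19 without WT mouse 2280 and -0.57 without mouse 2279, so the signs held but the sizes rested on single mice. A transcribed pseudogene, *Gm6061*, overlaps *Gclm* on the same strand, so reads at *Gclm* may be shared with it.

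*Txnrd1*, the cytosolic reductase that keeps thioredoxin reduced with NADPH, lies at chr10:82833951-82897712 on the plus strand. It was at 20.1, 18.8 and 22.3 FPKM in HrasG12V mice 2276, 2278 and 2279 against 24.1, 26.2 and 22.2 FPKM in WT mice 2277, 2280 and 2281. Only mouse 2279 entered the WT range. Its log2 fold change was -0.24 ± 0.16 (adjusted p = 0.657 in limma). *Eid3*, on the same strand, overlaps the annotated span of *Txnrd1*. *Srxn1*, sulfiredoxin, returns overoxidized peroxiredoxins to service, lies at chr2:152105516-152111376 on the plus strand and was the most scattered of the inducible enzymes in HrasG12V muscle. It was at 11.9965, 6.50 and 4.20 FPKM in mice 2276, 2278 and 2279 against 7.36, 8.79 and 7.19 FPKM in WT mice 2277, 2280 and 2281. The 3 HrasG12V mice lay on both sides of the WT range, and the log2 fold change of -0.16 ± 0.37 (adjusted p = 0.921 in limma) became 0.19 without mouse 2279 and -0.56 without mouse 2276.

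With all 6 mice, *Sod2* had the log2 fold change farthest from 0 among the 10 genes and *Sod1* the largest standard error. *Sod2*, the manganese dismutase of the mitochondrial matrix, lies at chr17:13006846-13040063 on the plus strand. It was at 143, 75.3 and 64.6 FPKM in HrasG12V mice 2276, 2278 and 2279 against 147, 132 and 151 FPKM in WT mice 2277, 2280 and 2281. Mice 2278 and 2279 were far below every WT mouse and mouse 2276 was within the WT range. The log2 fold change was -0.69 ± 0.33 (unadjusted p = 0.0775 and adjusted p = 0.539 in limma), or 1.61-fold higher in WT muscle. Without mouse 2276 it was -1.03 with a limma adjusted p of 0.0131, and with limma's array weights, which gave mouse 2276 a weight of 0.0933, it was -0.96 with a limma adjusted p of 0.0373. *Sod2* was the 1 gene of the 10 called with these weights, beside 22.8% of all genes tested at an unadjusted and 4.28% at an adjusted p below 0.05. Scaling each library to the same FPKM sum left -0.70, with an unadjusted p of 0.00177 and a limma adjusted p of 0.608. In this fit 5.33% and 0.0524% of all genes had an unadjusted and an adjusted p below 0.05. The scaling multiplied mouse 2276 by 0.659 and mice 2278 and 2279 by 1.25 and 1.30, which drew their *Sod2* values together. Before it, the log2 medians of the libraries already lay between 2.70 and 2.75. Centring libraries on the median instead left -0.68, with an unadjusted limma p of 0.0918. Quantile normalization left -0.68, with an unadjusted p of 0.0065 and a limma adjusted p of 0.267, beside 12.7% and 0.0674% of all genes. Other changes weakened it: *Sod2* was at -0.46 without mouse 2279, -0.57 without mouse 2278 and -0.60 with the trend over transcript length removed, with unadjusted limma p-values of 0.210, 0.187 and 0.125, and without moderation the unadjusted p was 0.123. *Prdx3*, a peroxiredoxin of the same compartment, had a like pattern, at 208, 112 and 119 FPKM in mice 2276, 2278 and 2279 against 191 to 202 FPKM in WT mice. The pattern was not particular to *Prdx3*. *Prdx1*, *Prdx2*, *Prdx5* and *Prdx6* were also below every WT mouse in mice 2278 and 2279 but not in mouse 2276.

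*Sod1*, the copper and zinc dismutase of the cytosol, lies at chr16:90220754-90226329 on the plus strand. It was at 378, 125 and 209 FPKM in HrasG12V mice 2276, 2278 and 2279 against 178, 173 and 181 FPKM in WT mice 2277, 2280 and 2281. The WT mice were within a narrow band, with mice 2276 and 2279 above it and mouse 2278 below it. The log2 fold change of 0.27 ± 0.41 (adjusted p = 0.872 in limma) turned to -0.14 without mouse 2276 and to -0.12 with array weights. The median transcript length of *Sod1* was 641 bases, the shortest of the 10 genes, and mouse 2276 was the library in which short transcripts were high. With each library's trend over transcript length removed, an alternative chosen after the data were seen, the log2 fold change was 0.21. The annotated span of *Scaf4*, on the opposite strand, overlaps that of *Sod1*, and the strand setting used for FPKM is not given in the sources used here.

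*Cat*, catalase, breaks down hydrogen peroxide in peroxisomes and lies at chr2:103453849-103485160 on the minus strand. It was at 50.4, 36.4 and 58.8 FPKM in HrasG12V mice 2276, 2278 and 2279 against 90.2, 61.3 and 49.2 FPKM in WT mice 2277, 2280 and 2281. The WT mice alone spanned the larger part of the range, and only mouse 2278 was below all of them. Its log2 fold change was -0.44 ± 0.30 (adjusted p = 0.666 in limma), and it was -0.20 without WT mouse 2277 and -0.25 without mouse 2278.

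The calls on these genes changed most when mouse 2276 was left out. Without it, *Nqo1*, *Gclc*, *Srxn1* and *Sod2* had unadjusted limma p-values of 0.0457, 0.0393, 0.0487 and 0.000366, and the values of the genotypes did not overlap for the same 4 genes. This is 4 of 10, beside 29.8% of all genes tested with an unadjusted p below 0.05 and 48.2% without overlap in the same 5 mice. *Nqo1*, *Srxn1* and *Sod2* were lower and *Gclc* was higher in mice 2278 and 2279. *Sod2* was the 1 gene of the 10 with an adjusted p below 0.05 there, beside 9.66% of all genes tested. Without mouse 2279, *Gclm* had an unadjusted limma p of 0.0261 and a log2 fold change of -0.57, beside 11.5% of all genes tested with such a p and 0.0898% with an adjusted one.

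Ratios between 2 of the genes within a library do not depend on a single factor by which that library was scaled. They do not cancel a trend over transcript length such as that of mouse 2276. Median lengths were 641 bases for *Sod1*, 3156 for *Sod2*, 3423 for *Gclc* and 1002 for *Gclm*. The part of that trend in the ratios was not tested. Of the 45 ratios among the 10 genes, 6 did not overlap between genotypes, or 13.3%, beside 19.4% of all ratios between genes above 0 in every library, so such ratios were no more common here than elsewhere. *Sod1* over *Sod2* was 2.65, 1.65 and 3.24 in HrasG12V mice 2276, 2278 and 2279 and 1.21, 1.31 and 1.20 in WT mice 2277, 2280 and 2281. The ratio was therefore higher in every HrasG12V mouse, through a high *Sod1* in mouse 2276, a low *Sod2* in mouse 2278 and both in mouse 2279. *Gclc* over *Gclm* was 0.474, 0.594 and 0.413 in the HrasG12V mice and 0.328, 0.324 and 0.328 in the WT mice. These 2 ratios were singled out after their values were seen, so no test of them is given. The other 4 were *Nqo1* over *Sod1*, which was lower in HrasG12V mice, and *Hmox1* over *Gclm*, *Hmox1* over *Txnrd1* and *Gclc* over *Txnrd1*, which were higher.

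**Figure D3:**
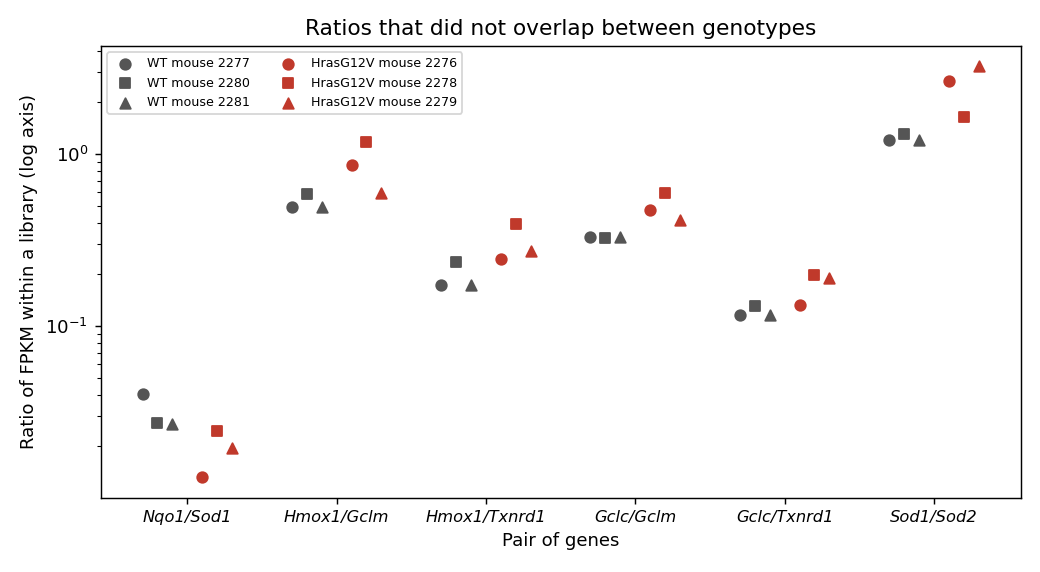
The 6 ratios of FPKM, out of 45 among the 10 genes, whose values did not overlap between genotypes, on a log axis with 1 point per mouse. For *Gclc*/*Gclm* the WT mice sit between 0.324 and 0.328 and the HrasG12V mice between 0.413 and 0.594.

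The 10 genes did not move as a block across the 6 mice. The median of their log2 differences from the WT mean was -0.09, -0.43 and -0.04 in HrasG12V mice 2276, 2278 and 2279, and 3, 2 and 5 of the 10 were above the WT mean. In WT mice 2277, 2280 and 2281 the medians were 0.00, 0.06 and -0.14. As a description over 6 libraries that share their scaling, Pearson's r of log2(FPKM + 0.1) with *Nfe2l2* was 0.94 for *Cat*, 0.84 for *Nqo1*, 0.76 for *Txnrd1* and 0.59 for *Gclm*. It was 0.38 for *Sod1* and 0.37 for *Sod2*, -0.01 for *Srxn1*, -0.18 for *Gclc* and -0.51 for *Hmox1*. Among all genes tested, *Slc27a1*, *Atg13* and *Vwa7* had the highest r with *Nfe2l2*, each 0.99, and 104 genes had an r above 0.9. *Slc27a1*, a fatty acid transporter, was at 69.0 FPKM in WT mouse 2277 and 15.4 FPKM in mouse 2278, which also held the highest and lowest *Nfe2l2*. Between the 10 genes, r ran from -0.92 for *Gclc* with *Sod2* to 0.94 for *Nfe2l2* with *Cat*.

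Other genes of the pathway, 87 listed by role, were examined for comparison, and 83 of them passed the filter. Of these 83, 5 were higher and 2 were lower in HrasG12V muscle with an unadjusted limma p below 0.05, which is 8.43% and near the 10.2% of all genes tested (5.18% higher and 4.99% lower). None of the 83 had a limma adjusted p below 0.05. Without mouse 2276, 26 of the 83 had an unadjusted limma p below 0.05 and 7 an adjusted one, beside the 29.8% and 9.66% of all genes given above. The unadjusted count was 12 without mouse 2278, beside 9.69% of all genes (0.0898% at an adjusted p), and 11 without mouse 2279, beside 11.5%. The median log2 fold change was 0.05, with 49 of the 83 positive, and it was -0.14 without mouse 2276, with 27 positive. It was 0.20 without mouse 2278 and 0.14 without mouse 2279. The partners of Nrf2 gave 0 of 11, with values from -0.49 for *Gsk3b*, a kinase that marks Nrf2 for degradation, to 0.34 for *Maff*, a small Maf protein. Both limits moved with single mice, *Gsk3b* between -0.84 without mouse 2279 and -0.14 without mouse 2276, and *Maff* between 0.13 without mouse 2276 and 0.75 without mouse 2278. The count of partners called was 2 without mouse 2276 and 1 without mouse 2278 (*Maff*) or mouse 2279 (*Gsk3b*). All genes had 29.8%, 9.69% and 11.5% in these fits. *Keap1*, the inhibitor of Nrf2, is named outside the rule for named genes, after its values were seen. It was at 31.5 ± 10.8 FPKM in HrasG12V and 27.6 ± 2.56 FPKM in WT muscle (SD, n = 3), a log2 fold change of 0.14 ± 0.28 that became -0.11 without mouse 2276 and 0.39 without mouse 2278.

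Of the 28 genes tested in the 2 glutathione lists, 4 had an unadjusted limma p below 0.05, or 14.3%, beside 10.2% of all genes tested. The count was 9 (32.1%) without mouse 2276, beside 29.8% of all genes, and 7 (25%) without mouse 2278, beside 9.69%. *Gpx3*, the secreted glutathione peroxidase, was at 91.0, 91.0 and 153 FPKM in HrasG12V mice 2276, 2278 and 2279 against 51.7, 56.6 and 56.4 FPKM in WT mice 2277, 2280 and 2281. Its log2 fold change was 0.98 ± 0.26 (adjusted p = 0.382 in limma). *Gpx1*, the cytosolic form, was at 120, 69.3 and 66.7 FPKM and at 40.8, 47.9 and 51.8 FPKM in the same order, a log2 fold change of 0.82 ± 0.28 (adjusted p = 0.454 in limma). In both cases every HrasG12V mouse was above every WT mouse. This lack of overlap was part of the rule for naming genes, and 8.11% of all genes tested had it in this direction. The transferases *Gstt1* and *Gstt3* had log2 fold changes of 0.98 ± 0.20 (adjusted p = 0.318 in limma) and 1.18 ± 0.31 (adjusted p = 0.382 in limma). *Gstt1* was at 10.1 to 15.8 FPKM in HrasG12V and 5.75 to 6.89 FPKM in WT mice, and *Gstt3* at 4.29 to 10.004 and 2.74 to 3.26 FPKM. Of the 17 transferases tested, 16 had a positive log2 fold change, with a median of 0.24, beside 46.6% positive among all genes tested, and *Mgst3* was the exception at -0.03. Mouse 2276 decided this count: without it 6 of the 17 were positive, with a median of -0.12, beside 42.2% of all genes. Members of this family are similar in sequence and could share reads. In the list of glutathione synthesis, recycling and peroxidases, *Glrx* was lowest at -0.58, which became -0.95 without mouse 2276 and -0.21 without mouse 2279.

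Genes that supply NADPH, the reductant of these systems, gave 2 calls among 8 genes tested, 1 in each direction, beside 10.2% of all genes. The count was 3 without mouse 2276 or mouse 2279 and 1 without WT mouse 2277 or WT mouse 2281, beside 29.8%, 11.5%, 4.75% and 4.54% of all genes in these fits. *Tkt*, a transketolase of the pentose phosphate pathway, was at 9.999, 32.4 and 9.22 FPKM in HrasG12V mice 2276, 2278 and 2279 against 4.41, 6.03 and 4.44 FPKM in WT mice, a log2 fold change of 1.54 ± 0.48 (adjusted p = 0.433 in limma). The highest value was that of mouse 2278, without which the log2 fold change was 0.95. *Me1*, the cytosolic malic enzyme, was at 49.1, 50.2 and 51.4 FPKM in the HrasG12V mice against 69.8, 71.7 and 88.3 FPKM in the WT mice, a log2 fold change of -0.60 ± 0.19 (adjusted p = 0.432 in limma). *Abcc4*, a transporter that exports organic anions, was the other lower gene, at 3.26 to 3.74 FPKM against 5.59 to 7.29 FPKM, a log2 fold change of -0.85 ± 0.16 (adjusted p = 0.288 in limma). The 16 thioredoxin and peroxiredoxin genes gave 0 calls, beside 10.2% of all genes tested, and ran from -0.48 for *Prdx3* to 0.38 for *Txn1*. Without mouse 2276 *Txn1* was at 0.013 and *Prdx3* at -0.76, and without mouse 2278 they were at 0.60 and -0.32. Without mouse 2276, 9 of the 16 had an unadjusted limma p below 0.05, with a list median of -0.41, beside 29.8% of all genes, and *Prdx3* had a limma adjusted p of 0.0149. The list median was -0.14 with all mice but 0.05 without mouse 2278 or mouse 2279, with 0 and 2 calls, beside 9.69% and 11.5% of all genes. The 4 genes of copper handling and extracellular dismutase also gave 0, from -0.37 for *Slc31a1* to 0.43 for *Atox1*. *Atox1* was at 0.0080 without mouse 2276 and 0.71 without mouse 2279, and *Slc31a1* was at -0.55 without mouse 2276 and -0.18 without mouse 2279. Without mouse 2276 *Slc31a1* was the 1 gene of the 4 called, with an unadjusted limma p of 0.0131, beside 29.8% of all genes. With array weights its unadjusted limma p was 0.00996, beside 22.8% of all genes. *Ftl1*, ferritin light chain, was the highest of the heme and iron list at 0.52 (unadjusted p = 0.0854). Of the 7 genes called, *Gstt1*, *Gstt3* and *Abcc4* kept an unadjusted limma p below 0.05 under every alternative that tested them. *Gpx1* lost it without WT mouse 2277 or 2280, *Tkt* without WT mouse 2277 or 2281 or without moderation, and *Gpx3* and *Me1* with an equal FPKM sum in each library, where their log2 fold changes were still 0.97 and -0.61. Limma adjusted p-values of *Gstt1* and *Abcc4* were 0.0398 and 0.0252 without mouse 2276, beside 9.66% of all genes below 0.05. With array weights they were both 0.0372, and that of *Gpx3* was 0.0408, beside 4.28% of all genes.

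**Figure D4:**
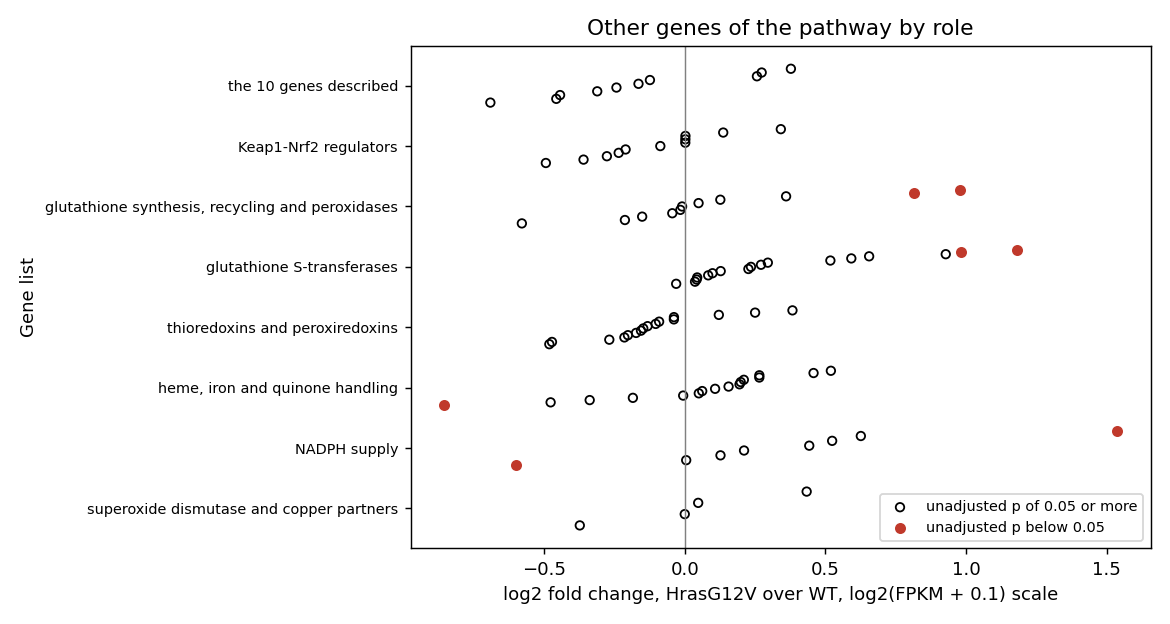
Log2 fold change of each gene, 1 row per list, with red points for an unadjusted limma p below 0.05 and open points for the others. The top row has no red point, and the 7 red points below it are *Gpx1*, *Gpx3*, *Gstt1*, *Gstt3*, *Abcc4*, *Tkt* and *Me1*.

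Markers of other cells and fiber types differed between the same mice, and in bulk muscle fewer cells of a type and less RNA per cell cannot be told apart. The 4 B cell markers summed to 69.4 and 54.7 FPKM in HrasG12V mice 2278 and 2279 but to 1.30 FPKM in mouse 2276, with WT sums of 0.521 to 1.07 FPKM. The 4 T cell markers summed to 22.9 and 27.2 FPKM in mice 2278 and 2279 but to 1.01 FPKM in mouse 2276, with WT sums of 0.552 to 0.833 FPKM. Mice 2278 and 2279 are the mice with low *Sod2*, *Nqo1* and *Srxn1* and high *Gclc*. Of all genes tested, 48.2% did not overlap between these mice and the WT mice. Adipocyte markers summed to 261 and 199 FPKM in mice 2278 and 2279 and to 58.2 FPKM in mouse 2276. The WT sums were 55.6, 62.2 and 11.8 FPKM in mice 2277, 2280 and 2281, and 6 of 6 markers had a higher mean in HrasG12V mice. Neutrophil markers summed to 19.7, 130 and 50.8 FPKM in HrasG12V mice 2276, 2278 and 2279 and to 0.716 to 3.57 FPKM in WT mice, with 5 of the 6 listed genes found. The sums of 8 macrophage markers, a cell type rich in *Hmox1*, overlapped, at 63.9 to 117 and 57.4 to 69.9 FPKM, and were highest in mouse 2278, as was *Hmox1*. The other HrasG12V mice had the opposite order. The sum was 86.5 FPKM in mouse 2276 with *Hmox1* at 4.93 FPKM, and 63.9 FPKM in mouse 2279 with *Hmox1* at 6.13 FPKM.

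Slow fiber markers ranged from 923 to 3150 FPKM in HrasG12V mice. They were 1078 and 1112 FPKM in WT mice 2277 and 2280 but 16.5 FPKM in WT mouse 2281, in which *Cat* was the lowest of the WT values. Mice 2276 and 2279 had slow fiber sums of 3150 and 2045 FPKM, yet *Cat* was at 50.4 and 58.8 FPKM in them, below the 90.2 FPKM of WT mouse 2277. Erythroid markers, from cells rich in *Cat*, summed to 766, 528 and 229 FPKM in mice 2276, 2278 and 2279 and to 245 to 278 FPKM in WT mice. *Cat* in mouse 2276 was within the WT range. The 5 endothelial markers summed to 123 to 124 FPKM in HrasG12V and 139 to 171 FPKM in WT mice. Of the 5, *Cdh5* alone did not overlap, and *Emcn*, at 28.9 FPKM in mouse 2276, was the 1 with a higher mean in HrasG12V mice. The sums of fibroblast markers overlapped, at 646 to 2513 and 1401 to 2907 FPKM. The part of these cells in the values of the 10 genes was not tested.

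**Figure D5:**
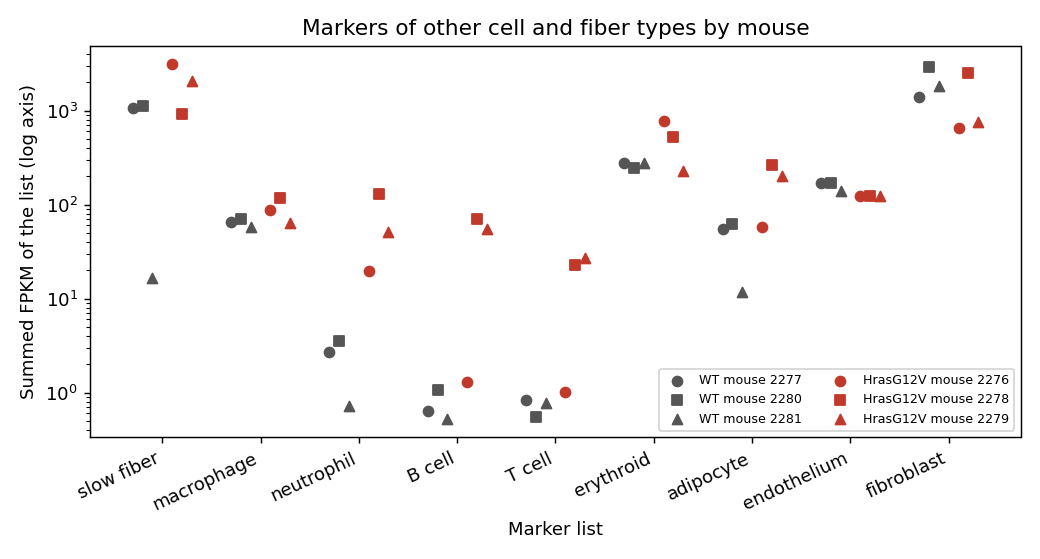
Summed FPKM of marker lists for other cell and fiber types in each mouse, on a log axis, with WT mice in grey and HrasG12V mice in red. B cell and T cell markers are far higher in mice 2278 and 2279 than in the other libraries, and WT mouse 2281 is lowest for slow fiber and adipocyte markers.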

How the data were processed

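mRNA of 6 gastrocnemius muscles, 3 per genotype, was sequenced from a stranded kit as single-end reads. Per the submitters' processing notes and the methods, the authors used bcl2fastq, TopHat and Cufflinks with a GRCm38 (mm10) genome, and deposited Cuffnorm FPKM for 23997 gene symbols per library. The sources used here give neither versions nor the annotation. Low FPKM were checked for steps of whole reads. The fullest interval of their ratios held 0.806% to 4.06% of genes per pair of libraries, so reads were not recovered. The methods state 1 approximate sequencing depth for all samples, and the depth of each library is unknown here.

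Genes with a mean of at least 0.5 FPKM were kept, 0.1 was added, and log2 values were fitted with limma 3.58.1 in R 4.3.3 (trended empirical Bayes, no covariate, two-sided, Benjamini-Hochberg over 13359 genes, limit 0.05). The fit was tested on simulated data. As alternatives, the pseudocount was 1 or 0.01, the filter was dropped or set to a mean of at least 5 FPKM, libraries were given an equal FPKM sum, centred on the median or quantile normalized, moderation was omitted, array weights were used and each mouse was left out. Removal of the trend over transcript length (99.3% of genes had a length in GENCODE vM21) and counts per pathway list with each mouse left out were added after the data were seen.

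The 10 genes and the lists were chosen with earlier results of these data known. Named genes are the 10, *Hras*, pathway genes with an unadjusted p below 0.05 and no overlap, the highest and lowest of each pathway list, and the 3 genes most correlated with *Nfe2l2*; markers were named where a list moved with a gene. Positions came from GENCODE vM21 on GRCm38. Python 3.11.15, pandas 2.3.3 and matplotlib 3.10.9 made tables and figures.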

Additional observations from a re-analysis of the deposited data

How the results depend on the processing

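No paired analysis was possible because the labels give each mouse its own number and tie no HrasG12V mouse to a WT mouse. The number of the 10 genes with an adjusted p below 0.05 was 0 and became 1 with array weights, beside 4.28% of all genes. It ran from 0 to 1 (without mouse 2276, beside 9.66%) with each mouse left out. The number with an unadjusted p below 0.05 was 0 and became 1 with an equal FPKM sum, with quantile normalization and with array weights, in each case *Sod2*. The shares of all genes in these fits were 5.33%, 12.7% and 22.8%. With each mouse left out the number ran from 0 to 4 (without mouse 2276, beside 29.8%). The number without overlap was 0 and became 1 with an equal FPKM sum, beside 11.8% of all genes, and it ran from 0 to 4 with each mouse left out, beside 22.8% to 48.2% of all genes. The median log2 fold change of the 10 genes ran from -0.26 to -0.15 with each mouse left out. Of the 83 other pathway genes, the 7 with an unadjusted p below 0.05 became 22 with array weights, beside 22.8% of all genes, and 5 (without WT mouse 2277, beside 4.75%) to 26 (without mouse 2276, beside 29.8%) with each mouse left out. Those with an adjusted p below 0.05 went from 0 to 3 with array weights, beside 4.28% of all genes, and 0 to 7 (without mouse 2276, beside 9.66%) with each mouse left out. The log2 fold change of *Sod1* (0.27) was -0.12 with array weights. With each mouse left out, *Sod1* ran from -0.14 (without mouse 2276) to 0.66, *Srxn1* from -0.56 to 0.19 (without mouse 2279), *Hras* from -0.92 to 0.010 (without mouse 2279) and *Mgst3* from -0.53 to 0.46 (without mouse 2278), and the sign of *Mgst3* (-0.03) also turned without WT mouse 2277 (0.0088) or WT mouse 2280 (0.013). The cause of these shifts was not tested. With a minimum mean of 5 FPKM *Nqo1* and *Gclc* were not tested. Reads per gene are unknown, so counting error could not be separated from differences between mice.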
